A study of Mus musculus with 11 samples.

Results

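The TGF-beta superfamily genes described here are 48 named genes, out of 54752 genes counted in each library. They encode ligands, receptors, Smads, antagonists (with the pseudoreceptor Bambi), latent TGF-beta binding proteins and TGIF corepressors. They were listed by name as members of the pathway and found by matching Ensembl gene identifiers to mouse symbols. All 48 were found. Of them, 38 passed the count filter of the differential test, which kept 15907 genes in all. The other 10 (Tgfb1, Bmp4, Acvrl1, Tgfbr2, Eng, Smad6, Ltbp1, Ltbp2, Tgif1 and Tgif2) had too few reads to be tested.

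The study profiled neurons of 3 first-order sensory nuclei of the mouse thalamus by bulk RNA-seq: the visual dorsolateral geniculate (dLG, 4 libraries), the somatosensory ventral posteromedial (VPM, 4 libraries) and the auditory ventromedial geniculate (MGv, 3 libraries). The comparisons between nuclei address which genes set the neurons of 1 sensory nucleus apart from those of the others at birth. The groups differed only in the nucleus dissected. Every mouse was of the ICR/CD-1 strain, at postnatal day 0, and carried Gbx2CreER-IRES-EGFP/+ with R26lsl-tdTomato/+. In these mice a tamoxifen-dependent Cre recombinase is made from 1 modified copy of Gbx2, a thalamic transcription factor gene, and switches on tdTomato, a red fluorescent protein, in early postmitotic thalamic neurons, so that only cells with a history of Gbx2 expression were sorted. All groups, with no wild-type group among them, thus carry the altered Gbx2 allele. Each library pooled 4 brains. Whether libraries came from separate litters was not given in the sources used here, so the p-values measure the spread between these libraries only.

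Ligands of this family (TGF-betas, activins, BMPs and GDFs) are secreted dimers that bind a type II receptor, which phosphorylates a type I receptor, which in turn phosphorylates a receptor-regulated Smad that enters the nucleus with Smad4. TGF-betas and activins act mostly through Smad2 and Smad3, and BMPs through Smad1, Smad5 and Smad9. Follistatin, noggin, gremlin and chordin bind ligands outside the cell and block them, whereas Smad6, Smad7 and the pseudoreceptor Bambi are feedback inhibitors that pathway activity itself can induce. In the nervous system these ligands are known as patterning signals in the embryo and later as target-derived and activity-linked signals for growing neurons.

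Total counts were 15867673 to 22699900 in dLG, 18909454 to 23559130 in VPM and 10175653 to 13164909 in MGv, so that 3 counts, the level taken as the floor, stood for 0.129 to 0.292 CPM. CPM here means the count of a gene relative to library size after TMM normalisation, per 1000000 counts. Neuronal markers summed to 10100 to 13300 CPM in all libraries (9 genes, 3 called). Of these, Nefm was at 254 to 327 CPM in MGv against 491 to 1476 in the other libraries, and Rbfox3 at 227 to 285 against 129 to 179. The 7 thalamic relay neuron markers were all called (sums of 2740 to 3180 CPM in dLG, 1860 to 2390 in VPM and 2500 to 2740 in MGv). Among them Gbx2 was at 272 to 333 CPM in MGv against 14.2 to 51.6 in the other libraries. Prox1 was at 4.08 to 13.2 CPM in MGv against 47.3 to 165. All 6 GABAergic markers together reached at most 5.19 CPM. Genes of astrocytes and radial glia overlapped between nuclei as a sum (9 genes, 3 called, 96.4 to 211 CPM in dLG, 146 to 214 in VPM and 107 to 237 in MGv). Among them Slc1a3 was at 45.5 to 90.3 CPM in MGv against at most 17.9 in the other libraries, Aldoc was lowest in dLG and Vim, which was called as well, lowest on average in MGv, while Gfap was at most 0.0866 CPM. In 3 libraries (dLG 2, VPM 3 and MGv 1) the heat shock cognate gene Hspa8 was at 3.05, 4.09 and 5.56 CPM, against 159 to 581 CPM in the rest, and results without these libraries are given below. Red blood cell genes summed to 514 CPM in dLG 3 and to at most 11.7 CPM elsewhere. Immediate early and dissociation genes were lowest in VPM as a sum (10 genes, 7 called among the nuclei, 278 to 371 CPM in VPM, 472 to 736 in dLG and 621 to 871 in MGv). The sum of the oligodendrocyte lineage genes was lowest in dLG and highest in MGv (7 genes, 2 called, 13.1 to 30.5 CPM in dLG, 33.7 to 43.9 in VPM and 74.9 to 86.5 in MGv). Mbp made up most of it, with 62.4 to 71.5 CPM in MGv, whereas Olig2 and Sox10 were at 0 in MGv and 4 of the 7 were under 1 CPM in every library. Endothelial genes overlapped between nuclei as a sum (3.82 to 7.54, 3.16 to 7.69 and 1.07 to 6.41 CPM in dLG, VPM and MGv), although 4 of 7 were called. Their directions differed. Kdr was at 1.30 to 2.92 CPM in VPM against at most 0.172 in dLG, and Flt1 at 0.496 to 1.58 against at most 0.334. Tek was instead at 1.805 to 5.49 CPM in dLG, 0.806 to 1.9 in VPM and at most 0.263 in MGv. Esam was at 1.19 to 1.91 CPM in dLG, 0.496 to 1.02 in VPM and 0.778 to 4.36 in MGv. Cdh5 was at 0 and Cldn5 at no more than 0.239 CPM in all libraries. The part of these markers in the results below was not tested, and in bulk libraries fewer expressing cells cannot be told apart from less RNA per cell.

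Differences among nuclei were called with edgeR (quasi-likelihood test) where the adjusted p was under 0.1, and they fell mostly on ligands and antagonists. Any difference among the 3 nuclei was called for 20 of the 38 tested members, beside 24.2% of all tested genes. Those 20 were 9 of 12 tested ligands, 5 of 7 antagonists (the pseudoreceptor Bambi among them), 4 of 10 receptors and 2 of 7 Smads. Neither tested latent TGF-beta binding protein was called (0 of 2, also 0 at an unadjusted p under 0.05 in the test of any difference, and 0 by DESeq2 and limma voom). Differences between these roles were not themselves tested. The count filter can keep a gene that is high in a single nucleus, as with Inhbb. The members were also listed with earlier results of these data known. These shares are therefore a description and not a test of the members as a set.

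**Figure D1:**
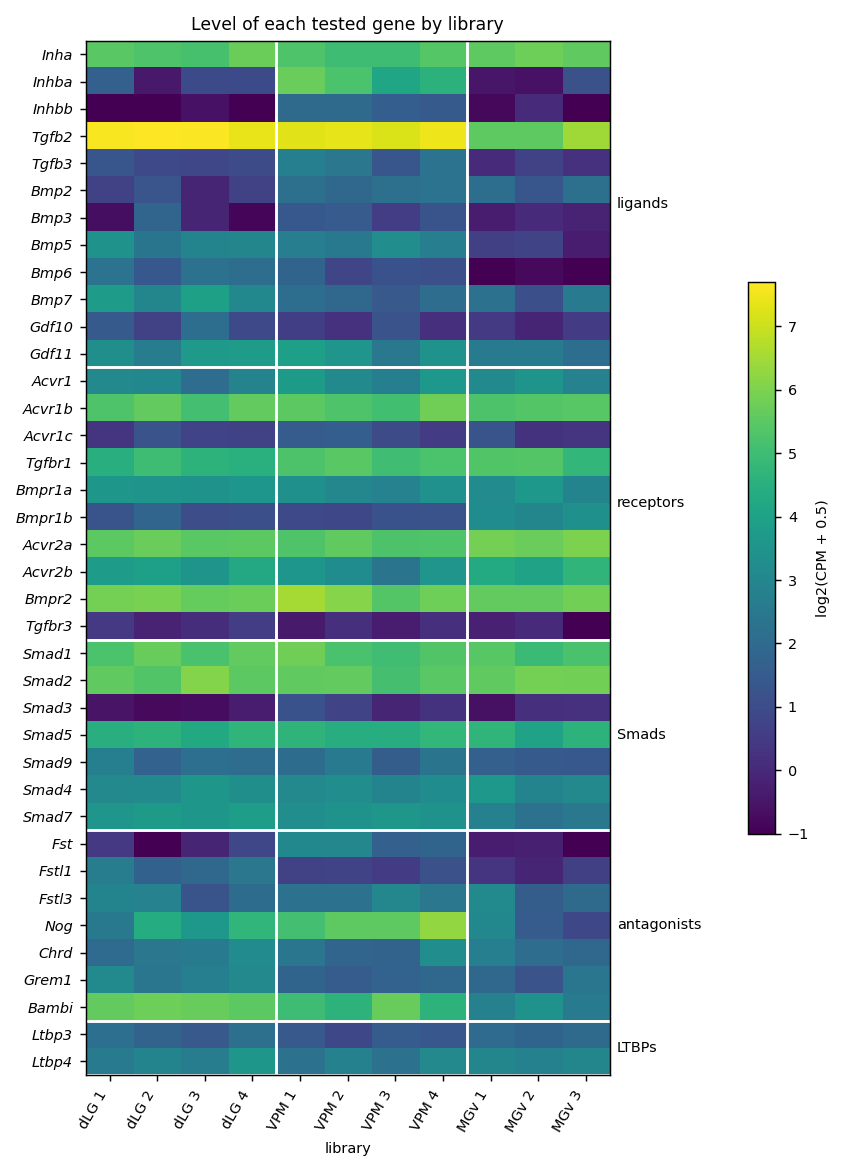
Level of the 38 tested genes in each of the 11 libraries, as log2(CPM + 0.5), with rows grouped by role and white lines between nuclei and roles. Most rows of the receptor and Smad blocks keep 1 colour across the 3 nuclei, whereas Inhba, Inhbb, Tgfb2, Bmp6, Nog and Bambi change colour between nuclei.

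Between dLG and VPM, 11 of 38 members were called (10.7% of all tested genes), 3 of them higher in dLG (4.97% of all genes) and 8 higher in VPM (5.74%). For dLG and MGv, the count was 12 (16.1%), of which 10 had the higher level in dLG (8.61%) and 2 in MGv (7.49%). For VPM and MGv it was 14 (19.0%), of which 11 had the higher level in VPM (10.4%) and 3 in MGv (8.56%). The comparisons share libraries, so these counts are not independent of each other. The median log2 fold change over the members was 0.18 for dLG over VPM, 0.26 for dLG over MGv and 0.30 for VPM over MGv, against 0.01, 0.02 and 0.02 over all tested genes. The median absolute log2 change was 0.58, 1.01 and 0.65 over the members and 0.27, 0.32 and 0.36 over all tested genes.

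A nucleus was taken to be set apart when it was called against both others in the same direction. By that rule 9 members were higher in 1 nucleus (8.12% of all tested genes), namely 5 in VPM (Inhba, Inhbb, Tgfb3, Fst and Nog, beside 2.41% of all genes), 3 in dLG (Bmp7, Fstl1 and Grem1, beside 2.04%) and Bmpr1b in MGv (3.66%). In the other direction 8 were lower in 1 nucleus (9.38%), namely 7 in MGv (Tgfb2, Bmp5, Bmp6, Gdf11, Smad7, Nog and Bambi, beside 5.22%) and Bmp2 in dLG (2.18%). None was lower in VPM than in both others (1.97% of all genes) by edgeR, DESeq2 or limma voom, and 2 were at an unadjusted p under 0.05 in both edgeR contrasts (Acvr2b and Ltbp3). Full separation, with no library of 1 nucleus within the range of the others, was seen in VPM above for 4 members (Inhba, Inhbb, Fst and Nog, beside 3.49% of all tested genes), in dLG above for 2 (Bmp7 and Fstl1, 3.01%) and in MGv above for 2 (Bmpr1b and Acvr2a, 5.98%). It was seen in MGv below for 6 (Tgfb2, Tgfb3, Bmp5, Bmp6, Smad7 and Bambi, 6.51%), in dLG below for Bmp2 alone (2.31%) and in VPM below for 0 members (2.88%).

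**Figure D2:**
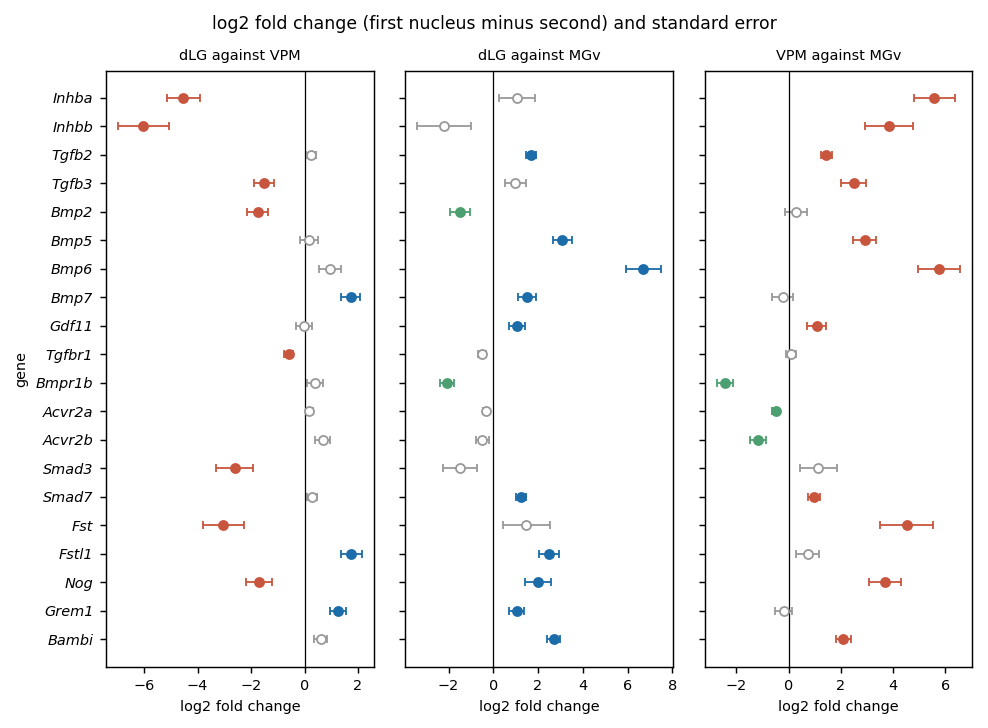
Log2 fold change (x axis, first nucleus minus second) with its standard error for each member called in at least 1 comparison (y axis), in 3 panels for the 3 pairs of nuclei. Filled points passed an adjusted p of 0.1 and are coloured by the nucleus with the higher level, and open grey points did not pass. Inhba, Inhbb and Fst lie on the VPM side in both panels that include VPM, and Tgfb2, Bmp5, Bmp6, Smad7 and Bambi lie away from MGv in both panels that include MGv.

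The beta subunit genes of activin were read almost entirely in VPM libraries. Inhba (chr13:16011851-16031621, plus strand, GRCm38), which encodes the beta A subunit of activin A, was at 52.1, 37.2, 17.3 and 23.7 CPM in VPM replicates 1 to 4. It was at 2.68, 0.258, 1.42 and 1.43 CPM in the dLG libraries and at 0.225, 0.176 and 1.75 CPM in the MGv libraries. The lowest VPM library was thus above the highest library of either other nucleus, with no overlap. Inhba was higher in VPM than in dLG by 4.52 ± 0.61 on the log2 scale (SE, 23.0-fold, adjusted p = 0.000399) and than in MGv by 5.57 ± 0.78 (47.6-fold, adjusted p = 0.000329). The dLG and MGv levels were not told apart (log2 difference 1.05 ± 0.80, adjusted p = 0.474).

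Inhbb (chr1:119415465-119422248, minus strand), for the beta B subunit, was likewise highest in VPM, at a lower level, with 3.52, 3.50, 2.54 and 2.24 CPM there. In dLG it was detected in replicate 3 alone, at 0.163 CPM, and in MGv it was at 0.0751, 0.527 and 0 CPM, so nearly all its reads were in VPM libraries. Over pooled counts, 245 in VPM against 3 in dLG gave a ratio of 78.8 (95% exact interval 26.7 to 385, for counting error only), and the edgeR test gave an adjusted p of 0.00133. Over MGv the difference was 3.83 ± 0.93 (log2, adjusted p = 0.0148). Without dLG replicate 3, Inhbb was also called higher in MGv than in dLG (adjusted p = 0.0795, from 0.296), a comparison of 7 counts with 0.

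Inha (chr1:75507077-75510366, plus strand) encodes the alpha subunit, which pairs with a beta subunit to form inhibin, an opponent of activin. Its level was 35.2 to 52.7 CPM in dLG, 31.4 to 42.3 in VPM and 46.4 to 54.5 in MGv, and no contrast passed. The MGv level was 0.44 ± 0.17 above VPM on the log2 scale (adjusted p = 0.106), a difference called without dLG replicate 3 (adjusted p = 0.0991), dLG replicate 4 (0.0956) or VPM replicate 4 (0.08). With all libraries, this difference was also called by DESeq2 (adjusted p = 0.0961) and in edgeR with a covariate for the low-Hspa8 libraries (0.0588). Per kilobase of exon, Inha was the most abundant member by the mean over nuclei, at 28.8, 24.5 and 33.4 CPM per kb in dLG, VPM and MGv. Inhba per kilobase was at 0.226, 5.10 and 0.112, so the alpha subunit transcript exceeded the beta A transcript in every nucleus.

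Follistatin, encoded by Fst (chr13:114452290-114458951, minus strand), binds activins and blocks their access to receptors. It was at 7.83, 7.66, 2.67 and 3.00 CPM in VPM, and at 0.852, 0, 0.436 and 1.29 CPM in dLG. MGv libraries had 0.301, 0.351 and 0 CPM, and no library of dLG or MGv reached the lowest VPM level. VPM exceeded dLG by 3.04 ± 0.77 (log2, 8.23-fold, adjusted p = 0.0277) and MGv by 4.52 ± 1.02 (22.9-fold, adjusted p = 0.0103). A ligand subunit and its antagonist were therefore both highest in VPM. The library with the lowest Inhba and Fst in VPM was replicate 3, which is among the libraries with low Hspa8, and all calls on these genes held without those 3 libraries. In the same VPM libraries the immediate early and dissociation genes were at their lowest as a sum, as given above. This did not hold for each gene. Fos was at 65.34 to 100.2 CPM in VPM and 165.5 to 296.1 in dLG. Npas4 overlapped between these nuclei (1.997 to 7.691 CPM in VPM and 0.8717 to 11.47 in dLG). Arc overlapped as well (0.7879 to 2.034 and 0.5993 to 3.867 CPM). A link of these genes to Inhba or Fst was not tested.

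Tgfb2 (chr1:186622792-186705989, minus strand) was the TGF-beta isoform with the most transcript in each nucleus, and it was lower in MGv. Its levels were 195, 207, 202 and 169.6 CPM in dLG, 159, 167, 148 and 178 CPM in VPM and 46.4, 46.0 and 87.3 CPM in MGv. All MGv libraries were below the lowest dLG or VPM library. The difference was 1.69 ± 0.21 for dLG over MGv (log2, 3.23-fold, adjusted p = 0.000122) and 1.44 ± 0.21 for VPM over MGv (2.72-fold, adjusted p = 0.000386), whereas dLG and VPM were not told apart (0.25 ± 0.18, adjusted p = 0.509). Per kilobase, Tgfb2 was at 33.4, 28.1 and 10.3 CPM per kb in dLG, VPM and MGv, against 0.456, 1.30 and 0.231 for Tgfb3.

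Tgfb3 (chr12:86056745-86079041, minus strand) was at 6.26, 4.93, 1.99 and 4.47 CPM in VPM, at 2.01, 1.38, 1.31 and 1.48 CPM in dLG and at 0.526, 1.14 and 0.680 CPM in MGv. VPM replicate 3 fell within the dLG range, and MGv lay below all other libraries. VPM was called above dLG (1.52 ± 0.39, log2, adjusted p = 0.0283) and above MGv (2.50 ± 0.47, adjusted p = 0.00325). Without VPM replicate 1 the difference from dLG became 1.32 (adjusted p = 0.109). Tgfb1, whose product is the form best known from immune and vascular cells, had 14 counts in all 11 libraries together and no library above 0.248 CPM, which is about the floor.

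The sequences before the starts of 3 ligand genes are shown because Inhba and Inhbb were both highest in VPM, whereas Tgfb2 was lowest in MGv. They are the 250 bases upstream of the RefSeq transcription start on GRCm38.p6, 5′ to 3′ on the strand of the gene, at chr13:16011601-16011850 (Inhba, plus), chr1:119422249-119422498 (Inhbb, minus) and chr1:186705990-186706239 (Tgfb2, minus). Capitals mark each match on either strand to a Smad box, spelled CAGAC, or to a TATA box, spelled TATAAA. They also mark the core of a cyclic AMP response element, spelled TGACG. A GC box was searched as GGGCGG, and a GC-rich Smad element as GGCGCC.
Inhba: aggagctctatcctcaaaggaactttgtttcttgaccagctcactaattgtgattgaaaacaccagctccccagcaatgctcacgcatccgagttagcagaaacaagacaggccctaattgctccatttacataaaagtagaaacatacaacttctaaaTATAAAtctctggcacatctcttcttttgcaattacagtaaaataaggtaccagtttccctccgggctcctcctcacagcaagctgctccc
Inhbb: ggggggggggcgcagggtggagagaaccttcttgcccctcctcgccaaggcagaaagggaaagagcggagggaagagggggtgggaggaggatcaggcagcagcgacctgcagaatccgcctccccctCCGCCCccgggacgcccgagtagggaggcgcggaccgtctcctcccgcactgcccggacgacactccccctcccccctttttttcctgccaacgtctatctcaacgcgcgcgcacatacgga
Tgfb2: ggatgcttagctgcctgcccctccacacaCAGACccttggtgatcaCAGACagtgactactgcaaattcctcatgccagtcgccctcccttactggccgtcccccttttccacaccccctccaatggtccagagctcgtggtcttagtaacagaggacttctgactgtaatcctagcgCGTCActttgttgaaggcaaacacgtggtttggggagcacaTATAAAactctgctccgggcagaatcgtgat
The Inhba window was 43.2% G or C and held TATAAA 91 bases before the start. The Inhbb window, with 68.0% G or C, held GGGCGG on the opposite strand, 122 bases before the start, and shared no motif with Inhba. That of Tgfb2 (53.6%) overlapped an exon of the noncoding gene Gm29491 and held CAGAC 221 and 204 bases, TGACG on the opposite strand 72 bases and TATAAA 31 bases before the start. Over all 32851 windows of the same length, CAGAC was in 42.2%, TGACG in 17.8%, TATAAA in 12.4%, GGGCGG in 32.7% and GGCGCC in 9.59%. Of the 48 genes, 36 had such a window. A match is a description of letters and not of binding.

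**Figure D3:**
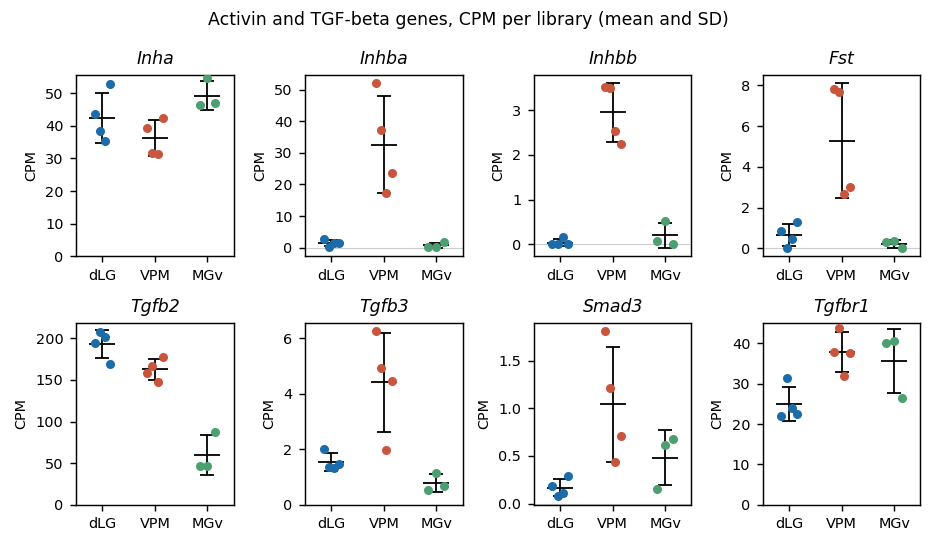
CPM (y axis, linear, separate scale in each panel) of 8 activin and TGF-beta genes in the dLG, VPM and MGv libraries; points are libraries and black bars the mean and SD. Inhba, Inhbb and Fst are high in all 4 VPM libraries and near 0 in dLG and MGv, Tgfb2 is low in all 3 MGv libraries, and Inha spans 31.4 to 54.5 CPM over all libraries.

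Among the BMP ligands, Bmp7 was highest in dLG, Bmp2 lowest in dLG, and Bmp5 and Bmp6 lowest in MGv. Bmp7 (chr2:172868012-172940321, minus strand) was at 13.2, 7.39, 14.9 and 7.78 CPM in dLG, at 3.89, 3.20, 2.17 and 3.80 CPM in VPM and at 4.36, 1.67 and 5.54 CPM in MGv. Each dLG library exceeded all others. The dLG level was 1.72 ± 0.36 above VPM (log2, 3.29-fold, adjusted p = 0.00909) and 1.49 ± 0.40 above MGv (2.80-fold, adjusted p = 0.0257).

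Bmp2 (chr2:133552159-133562885, plus strand) had the opposite arrangement, with 1.16, 1.98, 0.436 and 1.14 CPM in dLG against 4.08, 3.38, 4.16 and 4.52 CPM in VPM and 3.91, 2.02 and 4.08 CPM in MGv. The highest dLG library was just below the lowest MGv library. Bmp2 was higher in VPM than in dLG by 1.76 ± 0.40 (log2, adjusted p = 0.0163) and in MGv than in dLG by 1.48 ± 0.43 (adjusted p = 0.0393). The second difference lost its call without MGv replicate 1 (1.35, adjusted p = 0.12) or MGv replicate 3 (1.32, adjusted p = 0.132).

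Bmp6 (chr13:38345107-38500302, plus strand) was at 4.50, 2.11, 4.36 and 3.87 CPM in dLG and 3.01, 1.25, 1.80 and 1.66 CPM in VPM, and 1 read was counted in all of MGv, in replicate 2. Pooled counts of 284 in dLG against that 1 gave a ratio of 126 (95% exact interval 22.4 to 4990), and 158 in VPM a ratio of 67.6 (12 to 2690), with adjusted p of 8.76e-05 and 0.00033. Exons of the opposite-strand gene Txndc5 (38.2 to 76.9 CPM) cover 5.74% of its exonic bases, and whether counting used strand was not given in the sources used here.

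Bmp5 (chr9:75775364-75900310, plus strand) was at 10.7, 4.68, 7.03 and 7.54 CPM in dLG, 6.12, 5.28, 9.06 and 6.04 CPM in VPM and 1.05, 1.23 and 0.292 CPM in MGv. The 3 MGv libraries lay below all others, by 3.09 ± 0.44 from dLG (log2, adjusted p = 0.000384) and by 2.91 ± 0.44 from VPM (adjusted p = 0.000598). The antisense gene Gm26903, which covers 46.7% of Bmp5 exonic bases, was at 0.601 CPM or less, and was highest in an MGv library.

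Gdf11 (chr10:128882295-128891718, minus strand), an activin-like ligand that acts in tissue patterning, was at 5.97 to 13.3 CPM in dLG, 5.09 to 14.4 in VPM and 3.89 to 5.44 in MGv, with VPM replicate 3 inside the MGv range. It was called lower in MGv than in dLG (1.06 ± 0.35, log2, adjusted p = 0.0714) and than in VPM (1.08 ± 0.35, adjusted p = 0.0623). The dLG call was lost in 6 of the 11 fits that left out 1 library and the VPM call in 5, and both were lost with the replicate number as a block (adjusted p = 0.148 and 0.131) and with limma voom (0.202 and 0.161). Without dLG replicate 1, 3 or 4, the dLG difference had adjusted p of 0.111, 0.153 and 0.17, and without MGv replicate 1, 2 or 3 it had 0.133, 0.126 and 0.231. The VPM difference had 0.144 and 0.119 without VPM replicate 1 or 2, and 0.119, 0.107 and 0.196 without MGv replicate 1, 2 or 3.

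Bmp3, Gdf10 and Bmp4 were not called. Bmp3, a BMP that opposes the others, was at 0.122, 3.09, 0.436 and 0.0477 CPM in dLG, so that replicate 2 stood apart, and at 0.992 to 2.29 CPM in VPM and 0.301 to 0.527 in MGv. Without dLG replicate 2, Bmp3 was higher in VPM than in dLG by 3.17 (log2, adjusted p = 0.0131, from 0.596) and than in MGv by 2.18 (adjusted p = 0.0484, from 0.199). Gdf10 was at 1.12 to 3.87 CPM in dLG, 0.666 to 1.86 in VPM and 0.439 to 0.972 in MGv. The dLG level was 1.47 ± 0.59 over MGv (adjusted p = 0.137), and was called without dLG replicate 2 (1.69, adjusted p = 0.0898) or VPM replicate 3 (1.47, adjusted p = 0.0913). DESeq2 called this Gdf10 difference with all libraries (adjusted p = 0.0965). Bmp4, a central BMP of early patterning, had 1 count in total, in VPM.

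Extracellular BMP antagonists also differed. Nog (chr11:89300638-89302332, minus strand), for noggin, which sequesters BMP ligands, was at 33.7, 46.6, 46.0 and 77.8 CPM in VPM. Levels were 5.17, 20.3, 11.8 and 25.8 CPM in dLG and 7.89, 2.37 and 1.36 CPM in MGv. All VPM libraries were above the rest, while MGv replicate 1 was above dLG replicate 1. VPM exceeded MGv by 3.69 ± 0.61 (log2, 12.9-fold, adjusted p = 0.00136) and dLG by 1.69 ± 0.48 (3.22-fold, adjusted p = 0.0497), and dLG exceeded MGv by 2.0 ± 0.58 (3.99-fold, adjusted p = 0.0384). Per kilobase, Nog reached 30.1 CPM per kb in VPM, close to Tgfb2, against 9.30 in dLG and 2.28 in MGv.

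The smaller differences of Nog depended on single libraries. That between VPM and dLG was 1.42 without dLG replicate 1, 1.57 without dLG replicate 3 and 1.41 without VPM replicate 4 (adjusted p = 0.109, 0.13 and 0.127). That between dLG and MGv was 1.66, 1.74 and 1.61 without dLG replicate 4, MGv replicate 2 and MGv replicate 3 (adjusted p = 0.101, 0.136 and 0.154), 1.67 with the replicate number as a block (adjusted p = 0.131) and 2.13 with limma voom (adjusted p = 0.121). The difference between VPM and MGv passed in all 24 alternatives.

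Fstl1 and Grem1 were highest in dLG. Fstl1 (chr16:37776873-37836514, plus strand), a secreted glycoprotein of the follistatin group that antagonizes BMPs, was at 5.84, 2.75, 3.32 and 4.96 CPM in dLG, at 0.930 to 1.71 CPM in VPM and at 0.439 to 1.07 CPM in MGv, with dLG above all. It exceeded VPM by 1.75 ± 0.38 (log2, adjusted p = 0.0111) and MGv by 2.48 ± 0.46 (adjusted p = 0.00252). Grem1 (chr2:113746164-113758646, minus strand), for gremlin, was at 8.28, 4.81, 6.26 and 7.97 CPM in dLG, 2.38 to 3.38 in VPM and 3.23, 1.84 and 4.86 in MGv, so that MGv replicate 3 slightly exceeded dLG replicate 2. Its difference from VPM was 1.24 ± 0.31 (adjusted p = 0.024). The difference from MGv was 1.05 ± 0.34 (adjusted p = 0.0632) and lost its call without dLG replicate 1, dLG replicate 4, MGv replicate 1 or MGv replicate 2 (adjusted p = 0.159, 0.143, 0.149 and 0.203) and with counts thinned to the smallest total (adjusted p = 0.121).

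Chrd, for chordin, and Fstl3, a follistatin relative, did not pass in any contrast. Chrd ranged from 2.92 to 9.18 CPM and Fstl3 from 1.91 to 8.26 CPM over all libraries, with ranges that overlapped in the 3 nuclei. Exons of Prss57 on the opposite strand cover 47.3% of Fstl3, and Prss57 was at 0.43 CPM or less.

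**Figure D4:**
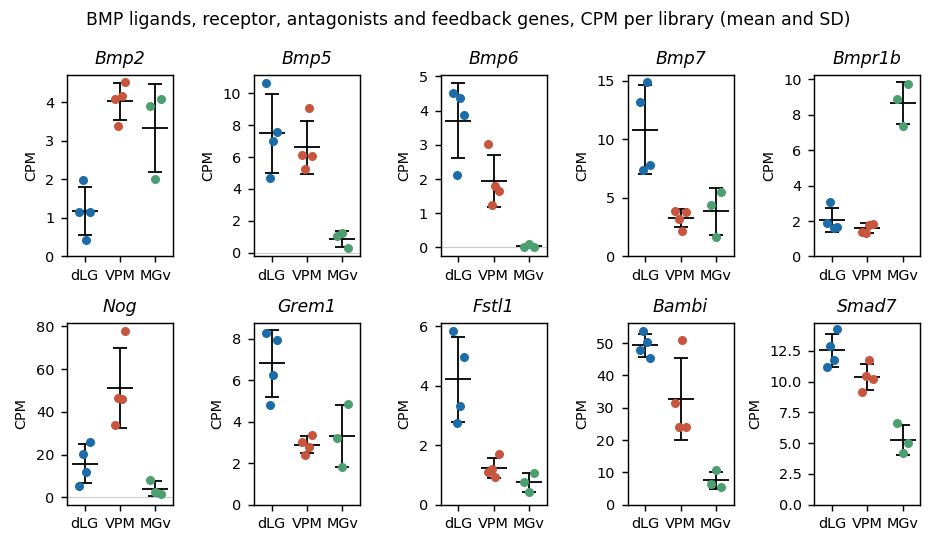
CPM (y axis, linear, separate scale in each panel) of 10 BMP ligand, receptor, antagonist and feedback genes in the dLG, VPM and MGv libraries; points are libraries and black bars the mean and SD. Bmp7 and Fstl1 are highest in dLG, Nog in VPM and Bmpr1b in MGv, and Bmp5, Bmp6, Bambi and Smad7 are lowest in MGv.

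The 4 called receptors, of 10 tested, were the type I receptors Bmpr1b and Tgfbr1 and the type II receptors Acvr2a and Acvr2b. Bmpr1b (chr3:141837136-142169425, minus strand), a type I receptor for BMPs and GDFs, was the only member higher in MGv than in both others. It was at 8.87, 7.37 and 9.72 CPM in MGv, 1.89, 3.09, 1.58 and 1.67 CPM in dLG and 1.39, 1.34, 1.80 and 1.85 CPM in VPM, without overlap. MGv exceeded dLG by 2.06 ± 0.31 (log2, 4.18-fold, adjusted p = 0.000577) and VPM by 2.44 ± 0.31 (5.41-fold, adjusted p = 0.000175). The related Bmpr1a did not pass, with 10.6 to 11.6 CPM in dLG, 6.76 to 10.03 in VPM and 7.09 to 11.9 in MGv, so that per kilobase Bmpr1b (1.45) reached the level of Bmpr1a (1.45) in MGv alone.

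The activin type II receptors shared an order of mean levels, with MGv at the top and VPM at the bottom. Only MGv and VPM were told apart. Acvr2b (chr9:119402118-119434995, plus strand) was at 19.4, 15.8 and 25.5 CPM in MGv, 13.2, 14.7, 10.8 and 18.5 in dLG and 11.3, 8.79, 4.59 and 11.0 in VPM, and MGv exceeded VPM by 1.18 ± 0.29 (log2, adjusted p = 0.0174). Acvr2a (chr2:48814109-48903269, plus strand) was at 58.3, 52.3 and 62.8 CPM in MGv, 43.8 to 51.4 in dLG and 37.8 to 47.6 in VPM, and MGv exceeded VPM by 0.50 ± 0.14 (1.41-fold, adjusted p = 0.028). All 3 MGv libraries were above the rest for Acvr2a, and MGv and dLG overlapped for Acvr2b. Without MGv replicate 3 the Acvr2a difference was 0.43 (adjusted p = 0.116), and with no count filter it was 0.47 (adjusted p = 0.138). Exons of Orc4 on the opposite strand (60.5 to 112 CPM) cover 7.84% of Acvr2a. Neither gene passed between dLG and MGv (adjusted p = 0.33 for Acvr2b and 0.175 for Acvr2a). The same held between dLG and VPM (adjusted p = 0.172 for Acvr2b and 0.477 for Acvr2a).

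Tgfbr1 (chr4:47353222-47414931, plus strand), the type I receptor for TGF-betas, was at 37.8, 43.9, 31.8 and 37.6 CPM in VPM, 22.1, 31.3, 23.9 and 22.6 CPM in dLG and 40.1, 40.5 and 26.4 CPM in MGv. VPM was 0.60 ± 0.18 above dLG (log2, 1.51-fold, adjusted p = 0.0588). That call was lost with library totals in place of TMM (0.51, adjusted p = 0.143) and without any of dLG replicates 1, 3 and 4 (adjusted p = 0.156, 0.128 and 0.159) or VPM replicates 1, 2 and 4 (0.114, 0.179 and 0.104). MGv was 0.51 ± 0.19 above dLG (adjusted p = 0.107), a difference called without dLG replicate 2 (0.64, adjusted p = 0.0433), VPM replicate 3 (0.51, adjusted p = 0.08) or MGv replicate 3 (0.69, adjusted p = 0.0417). With all libraries, it was also called by DESeq2 (adjusted p = 0.0751). The same held in edgeR with DESeq2 size factors (0.091) or a covariate for the low-Hspa8 libraries (0.0857).

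Its partner Tgfbr2, the type II receptor to which TGF-beta binds first, had very few reads, with 3 counts in dLG, 9 in VPM and 2 in MGv, and at most 0.285 CPM in a library. Per kilobase it was at 0.00443, 0.0127 and 0.00702 CPM per kb in dLG, VPM and MGv, against 3.82, 5.78 and 5.46 for Tgfbr1. Tgfbr3 (betaglycan, 0 to 1.00 CPM), Eng (endoglin, 0 to 0.301 CPM) and Acvrl1 (0 to 0.130 CPM), the last 2 known from endothelium, were also at or near the floor. The remaining receptors showed no called difference. Acvr1b, the main activin type I receptor, was at 33.3 to 55.1 CPM over all libraries, Bmpr2 at 40.4 to 92.0 CPM, Acvr1 at 3.81 to 13.0 CPM and Acvr1c at 0.702 to 2.51 CPM. Bmpr2 was 0.33 ± 0.22 higher in VPM than in MGv on the log2 scale (adjusted p = 0.364), and without VPM replicate 3 by 0.50 (adjusted p = 0.0801).

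**Figure D5:**
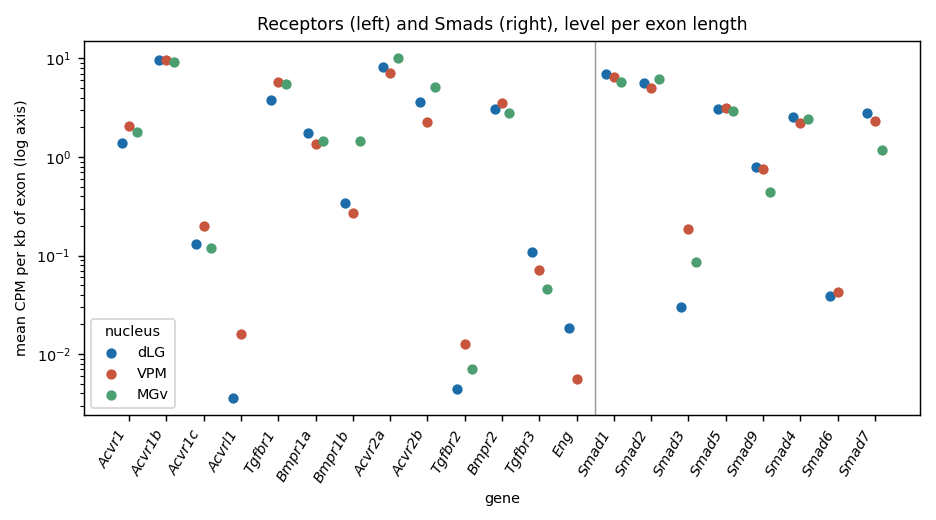
Mean CPM per kilobase of exon (y axis, log scale) of the 13 receptor genes (left of the grey line) and 8 Smad genes (right of it) in dLG, VPM and MGv. Means of 0 (Acvrl1, Eng and Smad6 in MGv) are not drawn. Acvr1b, Acvr2a, Smad1 and Smad2 are near the top in all nuclei, Tgfbr2, Acvrl1 and Eng near the bottom, and Bmpr1b and Smad3 show the widest gaps between nuclei among the tested genes.

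Of the Smads, Smad3 and the inhibitory Smad7 were called, and the other 5 tested were not. Smad2 was at 34.8 to 66.8 CPM over all libraries, Smad1 at 29.8 to 55.5, Smad5 at 15.4 to 26.5, Smad4 at 7.01 to 11.9 and Smad9 at 2.14 to 6.27 CPM, and none of these passed. Smad9 was 0.77 ± 0.36 higher in VPM than in MGv (log2, adjusted p = 0.185), and without VPM replicate 3 by 0.94 (adjusted p = 0.0866). Smad3, which shares the TGF-beta and activin branch with Smad2, was far rarer (0.188 CPM per kb in VPM against 4.99 for Smad2). Smad3 (chr9:63646767-63757994, minus strand) was at 1.81, 1.21, 0.434 and 0.713 CPM in VPM, 0.183, 0.0859, 0.109 and 0.286 CPM in dLG and 0.150, 0.614 and 0.680 CPM in MGv. The VPM and dLG libraries did not overlap, and MGv overlapped both. The difference of 2.61 ± 0.68 (log2, adjusted p = 0.0322) rests on 89 counts in VPM and 13 in dLG, and without VPM replicate 1 it was 2.23 (adjusted p = 0.119).

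The feedback inhibitors Smad7 and Bambi were lowest in MGv. Smad7 (chr18:75367529-75395935, plus strand) was at 11.2, 12.9, 11.8 and 14.3 CPM in dLG, 9.18, 10.4, 11.8 and 10.2 CPM in VPM and 6.61, 4.21 and 5.05 CPM in MGv. Bambi (chr18:3507923-3516404, plus strand), a receptor-like protein without a kinase domain, was at 47.8, 53.8, 50.4 and 45.3 CPM in dLG, 31.5, 24.1, 51.0 and 24.1 CPM in VPM and 6.54, 10.6 and 5.64 CPM in MGv. For both genes all 3 MGv libraries were below all others. Smad7 was lower in MGv than in dLG by 1.24 ± 0.22 (log2, adjusted p = 0.00185) and than in VPM by 0.97 ± 0.22 (adjusted p = 0.00962). Bambi was lower by 2.7 ± 0.30 (6.49-fold, adjusted p = 4.61e-05) and by 2.10 ± 0.29 (4.29-fold, adjusted p = 0.0003).

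Within VPM, Bambi in replicate 3 was at the dLG level. Its difference between dLG and VPM was 0.60 ± 0.24 (adjusted p = 0.175), and without VPM replicate 3 it was 0.90 (adjusted p = 0.0115). With all libraries, the Bambi difference was also called by limma voom (0.69, adjusted p = 0.0518). The same held in edgeR with library totals in place of TMM (0.73, adjusted p = 0.0622). The other inhibitory Smad, Smad6, had 10 counts in dLG, 12 in VPM and 0 in MGv. With 3 counts over the MGv libraries, the ratio to MGv would be 1.48 for dLG and 1.71 for VPM. These ratios leave out the counting error of the 10 and 12 counts and are not lower limits. Latent TGF-beta binding proteins hold TGF-beta in the matrix. Ltbp4 was at 4.26 to 11.6 CPM and Ltbp3 at 1.34 to 4.15 CPM over all libraries, Ltbp1 reached 0.464 CPM and Ltbp2 0.0951 CPM. The corepressors Tgif1 and Tgif2 had at most 0.376 and 0.218 CPM.

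Other genes of the pathway were taken from a list of 77, of which 54 were tested. Any difference among nuclei was called for 28 of them, beside 24.2% of all tested genes. Between dLG and VPM, 10 were higher in dLG (4.97% of all tested genes) and 8 in VPM (5.74%). Between dLG and MGv, 11 were higher in dLG (8.61%) and 4 in MGv (7.49%), and between VPM and MGv, 13 were higher in VPM (10.4%) and 8 in MGv (8.56%). As with the members, calls were frequent among extracellular modulators (14 of 17 tested) and few among intracellular modulators such as the Smurf ligases, Ski and Skil (2 of 18). Of 11 tested target genes, 8 were called.

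The pathway genes higher in VPM than in both others included Pmepa1, a TGF-beta-induced inhibitor of Smad2 and Smad3 access to receptors, and Tgfbi, a matrix protein induced by TGF-beta. Pmepa1 was at 11.9 to 22.7 CPM in VPM, 3.48 to 6.54 in dLG and 4.73 to 7.19 in MGv, a rise of 1.83 ± 0.27 over dLG (log2, adjusted p = 0.000767) and 1.70 ± 0.30 over MGv (adjusted p = 0.00215). Tgfbi was at 7.81 to 11.2 CPM in VPM, 0.218 to 2.74 in dLG and 0.150 to 0.527 in MGv, or 3.00 ± 0.53 and 4.77 ± 0.71 higher in VPM (adjusted p = 0.00308 and 0.000587). Lrrc32, which tethers latent TGF-beta at the cell surface, was at 5.15 to 8.81 CPM in VPM, 2.37 to 3.53 in dLG and 0.583 to 1.14 in MGv, with all 3 contrasts called. Libraries of VPM did not overlap those of the other nuclei for these 3 genes. Klf10, another commonly used target of the same branch, did not pass in any contrast, and Ccn2 was at 0.952 to 1.44 CPM in VPM, 0.945 to 1.64 in dLG and 0 to 0.150 in MGv.

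Targets of the BMP branch went different ways. Id1, a direct BMP target, was lowest in VPM, with 1.12 to 1.76 CPM against 1.40 to 5.58 in dLG and 3.40 to 7.44 in MGv (log2 difference 1.53 ± 0.41 for dLG over VPM, adjusted p = 0.0378, and 2.08 ± 0.44 for MGv over VPM, adjusted p = 0.00706). Id2 was highest in dLG (333 to 671 CPM, against 199.9 to 323 in VPM and 129.6 to 200.3 in MGv, adjusted p = 0.00713 and 0.000429). Id3 did not pass, and Id4 was called for dLG over MGv alone (1.36 ± 0.36, adjusted p = 0.0224). Junb was lowest in VPM (7.10 to 13.4 CPM, against 14.9 to 29.3 in dLG and 22.8 to 46.1 in MGv), and it is also an immediate early gene.

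Among co-receptors and modulators, Rgma, a BMP co-receptor that also repels axons through neogenin, was at 37.3 to 61.7 CPM in dLG, 11.6 to 19.9 in VPM and 4.48 to 6.80 in MGv, with all 3 contrasts called (1.56 ± 0.23 for dLG over VPM, log2, adjusted p = 0.00069, and 3.10 ± 0.28 for dLG over MGv, adjusted p = 9.34e-06). The chordin-cleaving proteases Bmp1 and Tll1 were likewise highest in dLG, at 14.2 to 23.1 and 2.92 to 8.11 CPM, against 5.58 to 11.6 and 0.930 to 2.14 CPM in VPM. In MGv they were at 5.18 to 7.21 and 0.351 to 0.827 CPM. Sostdc1 (0.510 to 1.9 CPM in VPM, 6.01 to 11.9 in dLG and 3.46 to 12.8 in MGv) is a BMP antagonist that was lowest in VPM, opposite to Nog (adjusted p = 0.000723 against dLG and 0.00123 against MGv).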

How the data were processed

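RNA of tdTomato-positive neurons, sorted from dLG (4 libraries), VPM (4) and MGv (3) of newborn mice, was amplified with a SMARTer low-input kit and sequenced as single reads of 50 bases. The deposited files hold raw counts per gene. The authors, as the labels and methods state, made these counts by trimming with Trim Galore 0.6.1 and cutadapt 2.3, alignment with STAR 2.7.0d to GRCm38 and featureCounts of Subread 1.6.4 with Ensembl genes. Strand use and the treatment of multiply aligned reads were not given in the sources used here. Amplified reads without molecular identifiers are not independent molecules, so counting intervals and floors cover counting error only.

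Counts were analysed as deposited, with edgeR 4.0.16 in R 4.3.3. Genes were filtered with filterByExpr (minimum count 10), scaled by TMM and fitted over all 11 libraries with 1 mean per nucleus. Contrasts were tested by glmQLFTest, two-sided, with Benjamini-Hochberg adjustment over all 15907 genes and a threshold of 0.1, as the study used. The common biological coefficient of variation was 28.2%, and no pair of libraries of a nucleus agreed within sampling noise. Positions, symbols and exon lengths came from GENCODE M21 and promoters from RefSeq. The members and lists were chosen with earlier results of these data known, and all members and every called gene of the pathway list could be named, apart from some items that are not reported here. Alternatives were DESeq2 1.42.0, limma 3.58.1 (voom), other scalings, filters and thresholds, thinned counts, the replicate number as a block, each library left out, and the libraries with low Hspa8 left out or as a covariate.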

Additional observations from a re-analysis of the deposited data

Results flagged for a closer look

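Within nuclei of 4 libraries, a library was singled out where its gap to the nearest other divided by the whole range exceeded the 95% critical value of Dixon's test. Of 76 groups of values from the tested members, 3 were singled out, and chance alone does this for about 1 group in 20. Inhbb was at 0.1634 CPM in dLG replicate 3 and at 0 in the other dLG libraries, a level equal to the floor of 3 counts. Bmp3 was at 3.093 CPM in dLG replicate 2, against 0.04772 to 0.4358 CPM in the others of that nucleus, and this replicate is among the libraries with low Hspa8. Acvr2a was at 47.6 CPM in VPM replicate 2, against 37.84 to 39.04 CPM in the other VPM libraries, which is within the dLG range.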

How the results depend on the processing

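The 37 calls of single members were recomputed under 24 alternatives, and none reversed. The number of members called among the nuclei, 20 with all libraries, was 18 to 20 under other scalings and 16 to 22 with 1 library left out. DESeq2, the DESeq2 size factors, and the fits without or adjusting for the low-Hspa8 libraries kept all 37, and limma voom kept 34, losing Gdf11 in both contrasts and Nog between dLG and MGv. DESeq2 also added Gdf10 and Tgfbr1 between dLG and MGv and Inha between VPM and MGv, and limma voom added Bambi between dLG and VPM. A requirement of 10 counts in every library tested 12035 genes, and 20 of the 37 calls could still be fitted, all of them kept. With it, the count of members called fell to 4 for dLG and VPM, 8 for VPM and MGv, 11 for any difference and 1 for higher in VPM than in both others. For the pairs of nuclei, this fall was made up of calls that could no longer be fitted. Over all 12035 genes, 1445 differed between dLG and VPM and 2445 between VPM and MGv. Without the low-Hspa8 libraries, 5 members were higher in dLG than in both others, and 2618 genes in all differed between dLG and VPM. An absolute log2 change over 1 left 922, 1552 and 1559 genes called for dLG and VPM, dLG and MGv, and VPM and MGv. With 1 library left out, 1093 to 2223 genes differed between dLG and VPM, the counts without VPM replicate 1 (1101) and VPM replicate 2 (1093) being under the 1704 of all libraries by more than 1.5 times; the cause was not tested. Scaling by library totals moved the median log2 fold change of all genes for dLG over VPM to 0.10.

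The nuclei share replicate numbers, but nothing ties libraries of the same number to the same brains. The deviations of 10 same-numbered pairs correlated at -0.203 to 0.483 (mean 0.015, against -0.005 for 30 other pairs), and 4 of 11 libraries correlated best with their own number. With the replicate number as a block, 11, 11 and 14 members were called for dLG and VPM, dLG and MGv, and VPM and MGv, and 19 for any difference, and 1464, 2169 and 2695 genes in all. Higher than in both others were 3 members in dLG, 5 in VPM and 1 in MGv, and 26 other pathway genes differed. The block ended the calls of Gdf11 in both contrasts and of Nog between dLG and MGv, and added Gdf10 (dLG over MGv, 1.56, adjusted p = 0.0656) and Inha (MGv over VPM, 0.55, adjusted p = 0.0469).

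Members near the floor of 3 counts (Tgfb1, Bmp4, Tgfbr2, Eng, Acvrl1, Smad6, Ltbp2, Tgif1 and Tgif2) could not be compared at this depth.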
